A study of Drosophila melanogaster with 4 samples.

Results

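Focused strong Pol II regions are short stretches of the Drosophila melanogaster genome, at most 250 bp wide, called for RNA polymerase II (Pol II) in whole embryos. Their deposited scores are among the higher ones of their chromosome arm. They were chosen by width and by score from the deposited list of the whole series, on the 6 chromosome arms 2L, 2R, 3L, 3R, 4 and X. A region was taken when its score was at or above the 75th percentile of all regions of the same arm. This left 460 of the 4247 regions on the arms (10.8%), or of 4366 in the whole list. The 1317 regions that are equally short but fall below the percentile, called focused weaker regions here, are the set they are read against. Both width and score were used to choose the regions, so these are given as descriptions, while spacing and neighbours were not used.

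Pol II transcribes the protein-coding genes and many small nuclear RNAs. Its largest subunit carries a tail of repeated heptads, the carboxyl-terminal domain, that is phosphorylated as the enzyme passes from initiation to elongation. In Drosophila embryos and cell lines the enzyme is known to pause shortly after starting at many developmental and heat shock genes, which concentrates it near the start site, while on actively elongated genes it is spread along the gene body. A short called region and a broad one are therefore both known forms of Pol II signal. The score of a region from whole embryos is an average, so few cells with much Pol II and many cells with little cannot be told apart.

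The study compared Pol II chromatin immunoprecipitation (ChIP) with input DNA in mixed embryos collected over 0 to 24 h. It has 2 ChIP samples from separate chromatin extractions, called replicate 1 and replicate 2, and 2 input samples, which were not analysed here. The ChIP used the mouse monoclonal antibody CTD4H8 against a phosphorylated heptad peptide, and the libraries were size-selected at 150 to 200 bp and read from a single end. No strain or genotype is named in the labels, and embryos of every stage were collected together, so no stage or tissue can be assigned to a region. Replicate 1 listed 5578 regions on the 6 arms and replicate 2 listed 8537, with depths that are unknown because the lists hold no read counts. Positions are on FlyBase release r5.1, counted from 1. Since the gene annotation in hand belongs to a later release, no gene, promoter or start site was assigned to any region. With 2 extractions and a single list from each, no test over samples could be made. The intervals of shares below are exact (Clopper-Pearson) 95% intervals. Those of median gaps are 95% intervals taken from the ranked values by the binomial distribution. Both kinds cover counting error only and treat regions as independent.

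Focused strong regions crowded against the upper end of the width limit. Their median width was 215 bp (quartiles 196 and 230 bp), against 184 bp (154 and 209 bp) for focused weaker regions. Widths over 200 bp made up 68.3% of the focused strong regions and 34.2% of the focused weaker ones. A width is the stretch above a calling threshold that is unknown, and these widths are close to the 150 to 200 bp of the library fragments. Only 6 of the 460 focused strong regions were under 100 bp, against 56 of the 1317 focused weaker ones. Together the 460 regions covered 96.4 kb, or 5.27% of the sequence in the list on the arms, against 12.9% for the focused weaker regions.

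**Figure D1:**
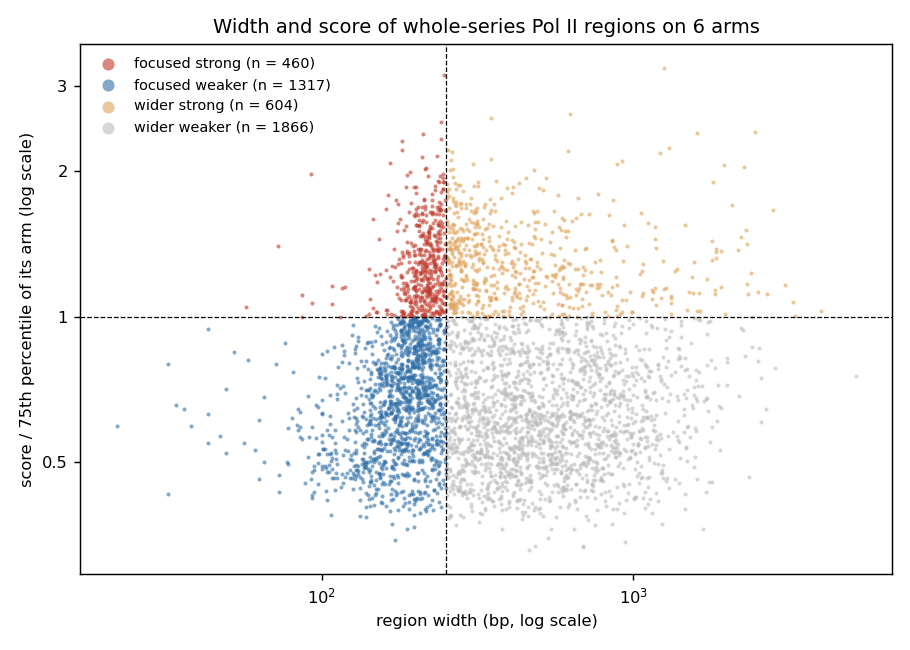
Each point is a whole-series region on the 6 arms, with its width in bp (log scale) against its score divided by the 75th percentile of its arm (log scale), and the dashed lines are the limits that chose the 460 focused strong regions. Most of those regions lie close to the 250 bp limit, and their scores reach 3.16 times the percentile.

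At the 250 bp limit, strong and weaker regions were short about equally often. Of the 1064 regions at or above the percentile, 460 were at most 250 bp wide (43.2%, 40.2% to 46.3%), and of those below it, 1317 of 3183 were (41.4%, 39.7% to 43.1%). This depended on the limit. At 200 bp, 13.7% of strong and 27.2% of weaker regions were short, and with the replicate 1 score alone the values at 250 bp were 38.3% and 43.0%. By arm, the share of strong regions that were short was 50.3% on X (42.6% to 57.9%), 45.7% on 2R, 43.0% on 2L, 41.1% on 3L and 37.9% on 3R, where the interval was 31.6% to 44.7%. The intervals of X and 3R overlap, so this order is not firm. On chromosome 4, 5 of 13 strong regions were short.

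The score that a region needed differed between arms. The 75th percentile was 3.57 on 3R, 3.80 on 4, 4.01 on 2R, 4.07 on 3L, 4.32 on X and 4.33 on 2L. Members numbered 101 on 2R, 95 on 3L, 88 on X, 86 on 2L, 85 on 3R and 5 on 4, or 3.05 per Mb on 3R and 4.78 per Mb on 2R at the extremes. Over 117 full windows of 1 Mb the median was 4 members, the highest was 12 and 7 windows held none, against a median of 11 focused weaker regions. On 3L, the window from 17000001 to 18000000 held 11 members beside 9 focused weaker regions, out of 43 regions in all.

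At the percentile itself, members and non-members scored alike. On X the region at 11187674 to 11187787 was just inside with 4.32, and the one at 15569442 to 15569625 just outside with 4.31. On 2L the values were 4.35 for the region at 19796293 to 19796480 and 4.30 for the region at 2311624 to 2311822. On 3L they were 4.11 (895911 to 896092) and 4.07 (7821037 to 7821210). On 3R they were 3.57 just inside (18413420 to 18413615) and 3.56 just outside (2169708 to 2169904). On chromosome 4, the inside region at 328676 to 328813 scored 3.81 and the outside one at 202366 to 202567 scored 3.80.

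The highest-scoring members outside 2R lay on 3L, X and 2L, and the replicate that scored higher changed from one region to the next. The first, on 3L at 9498247 to 9498492, was 246 bp wide and had a replicate 2 score of 8.79 beside a replicate 1 score of 17.0. On X, the region at 1930355 to 1930596 had 15.5 in replicate 2 but 6.40 in replicate 1. Another on X, at 5794814 to 5795054, had 7.27 in replicate 2 but 12.9 in replicate 1. The means of these 3 regions were 12.9, 10.9 and 10.1, with replicate SDs of 5.79, 6.43 and 4.0 (n = 2 each).

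The other seven carried the same mixture. Of those on 2L, the region from 20223064 to 20223244 had replicate 2 and replicate 1 scores of 3.85 and 16.2, the one from 14334081 to 14334295 had 6.97 and 10.6, and the one from 8277536 to 8277775 had 12.2 and 4.77. Of those on 3L, the region from 3902565 to 3902745 had replicate 2 and replicate 1 scores of 6.05 and 12.0, the one from 3825434 to 3825667 had 11.3 and 6.22, and the one from 2894975 to 2895183 had 14.9 and 2.55. The last, on X from 14068784 to 14068875, was 92 bp wide, with a replicate 2 score of 1.98 and a replicate 1 score of 15.1. Its replicate 1 region was 17 bp wide, so its place among the highest rests on a very short stretch in a single extraction. Over all 460 members the replicate scores had a Spearman correlation of -0.21, against 0.16 in focused weaker regions. Members were chosen by the mean of both scores, which can be high through 1 replicate alone. The part of this choice in the mixture was not tested.

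Among the upper 25% of members by score, other regions were nearly equal in both extractions. On 2L, the region from 8009352 to 8009550 had replicate 2 and replicate 1 scores of 6.91 and 7.10. On X, the region from 8961881 to 8962094 had 7.11 and 7.33 in the same order, and the one from 1647975 to 1648160 had 6.83 and 6.50. On 3R, the replicate 2 and replicate 1 scores of the region from 17867814 to 17868050 were 5.92 and 6.14, and on 3L those of the region from 7087849 to 7088092 were 7.67 and 7.32. These 5 were picked for the smallest ratios between replicates, and their replicate SDs were 0.13 to 0.24.

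At the other extreme, 4 of the 5 regions with the largest ratio between replicates were far higher in replicate 2. These were the 3L region at 2894975 already given, one on 3L from 7182902 to 7183075 (replicate 2 score 10.6, replicate 1 score 1.69), one on X from 19956631 to 19956816 (13.8 and 2.25) and one on 3R from 20282776 to 20282938 (10.9 and 1.87). The fifth was the 92 bp region on X.

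Replicate 2 gave the higher score at most members. The median score over the 460 regions was 6.06 in replicate 2 (quartiles 5.08 and 7.12) and 3.98 in replicate 1 (3.15 and 5.21), or 5.02 ± 1.47 as the mean of the replicates' medians (SD, n = 2). For focused weaker regions it was 2.81 in replicate 2 and 2.28 in replicate 1. Replicate 2 scored higher at 360 of the 460 members (78.3%), at 859 of the 1317 focused weaker regions (65.2%) and at 64.5% of all regions on the arms. As a log2 ratio of replicate 2 over replicate 1, the median was 0.63 in members and 0.22 in focused weaker regions, with SDs of 0.78 and 0.61 over regions. A score at least 2 times as high in replicate 2 was found at 129 members (28.0%), at 140 focused weaker regions (10.6%) and at 9.23% of all regions on the arms. The opposite was found at 7 members (1.52%), at 43 focused weaker regions (3.27%) and at 1.98% of all regions. The ratio depends on which score chooses the members. Chosen on the replicate 1 score alone, members had a median log2 ratio of 0.04 and focused weaker regions 0.37, the opposite order, and on the replicate 2 score alone the values were 0.87 and 0.13.

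The scores were also set against the 75th percentile of each arm in each replicate's own list. Of the 460 members, 315 were at or above it in both replicates (68.5%, 64.0% to 72.7%), against 58 of the 1317 focused weaker regions (4.40%) and 22.7% of all regions on the arms. None of the 460 was below it in both. Taken singly, replicate 2 was at or above it at 448 members (97.4%) and replicate 1 at 327 (71.1%). For focused weaker regions these shares were 28.6% in replicate 2 and 13.8% in replicate 1. These shares follow from the choice by score and are no separate support for it. A total of 40 members (8.70%) lay below the median of their arm in the replicate 1 list. So did 58.8% of focused weaker regions and 1.32% of regions as strong but wider than 250 bp. The 40 members had replicate 1 scores of 1.54 to 2.47 beside replicate 2 scores of 5.15 to 13.8. Another 4 members (0.87%) lay below the median of their arm in the replicate 2 list. The shares there were 39.5% of focused weaker regions and 0.33% of the wider strong ones. Strong thus describes both extractions at 315 regions and a single one at the other 145.

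**Figure D2:**
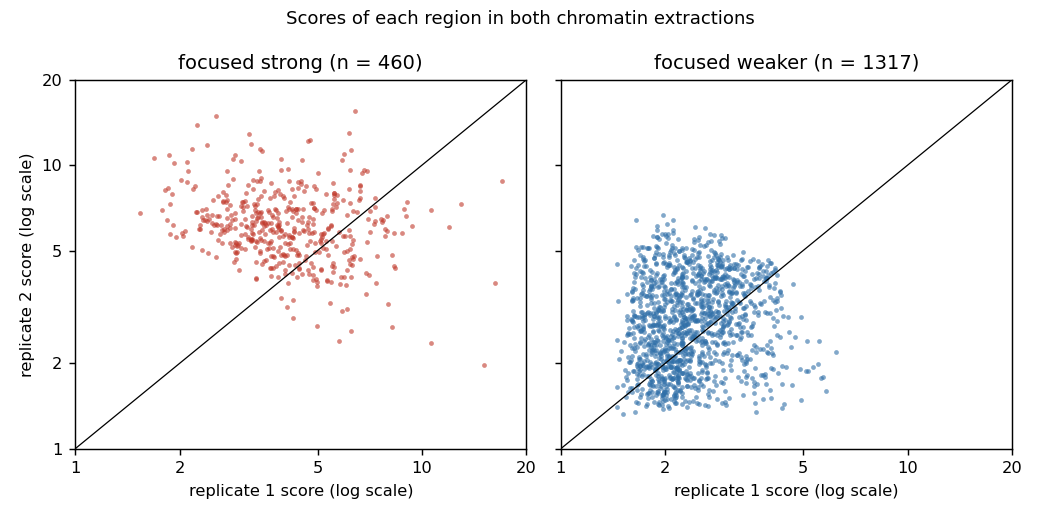
Each point is a region, with its replicate 1 score on the horizontal axis and its replicate 2 score on the vertical axis (both log scales), and the line marks equal scores. Focused strong regions (left) lie mostly above the line, 360 of 460, and reach replicate 1 scores as low as 1.54.

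Replicate 2 drew most members wider than replicate 1. Each of the 460 members joined exactly 1 region of each replicate, as did each of the 1317 focused weaker regions, which the 250 bp limit all but requires, since regions within a replicate list lay 200 bp or more apart. For members the replicate 2 width had a median of 213 bp with quartiles of 196 and 229 bp, and the replicate 1 width a median of 169.5 bp with quartiles of 144 and 190 bp. For focused weaker regions the replicate 2 median was 181 bp (148 and 206 bp) and the replicate 1 median 116 bp (83 and 150 bp). Replicate 2 was the wider at 452 of the 460 members and at 1189 of the 1317 focused weaker regions.

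**Figure D3:**
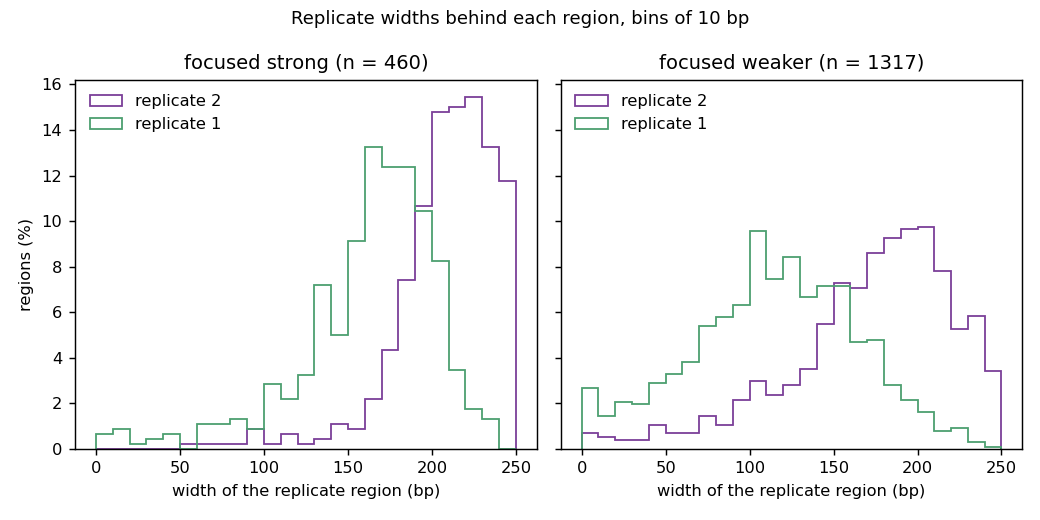
The lines give the percent of regions per 10 bp bin of width in replicate 2 and in replicate 1, for focused strong regions (left) and focused weaker regions (right). Replicate 2 widths of the focused strong regions gather between 196 and 229 bp (quartiles), and replicate 1 widths between 144 and 190 bp.

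The shorter replicate 1 region sat inside the replicate 2 region, nearly centred. At 417 of the 460 members (90.7%, 87.6% to 93.2%) it lay wholly within the replicate 2 region, against 1044 of the 1317 focused weaker regions (79.3%, 77.0% to 81.4%). In members the replicate 2 region went beyond the replicate 1 region by a median of 22 bp on the left (quartiles 12 and 32 bp) and 21 bp on the right (12 and 31.2 bp). The midpoints of both extractions were a median of 7.25 bp apart in members (quartiles 3.5 and 12 bp) and 10.5 bp apart in focused weaker regions (4.5 and 19.5 bp). They were within 10 bp of each other at 65.9% of members (61.3% to 70.2%) and at 49.1% of focused weaker regions (46.3% to 51.8%). A member is the joint outline of both regions and has to stay within 250 bp, which limits how far apart its midpoints can be. The room for an offset also differed between the sets, because the replicate widths differed less in members, and its part in the distances was not tested.

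A few members rest on almost no sequence in replicate 1, a list chosen after its values were seen. The replicate 1 region was 2 to 19 bp wide at 7 members, 5 of them on X. Such short regions were not counted in the other sets and are not particular to members. In focused weaker regions the replicate 1 width went down to 1 bp, with a 10th percentile of 46 bp against 109.9 bp in members. The shortest, on 3L from 4302637 to 4302755, was 119 bp wide in replicate 2 but 2 bp in replicate 1, and scored 7.03 and 2.38 there. On X, the region from 411888 to 411959 was 72 bp wide in replicate 2 but 14 bp in replicate 1, and its scores were 10.2 and 1.93. Another region of the list lay within 1000 bp of 4 of these 7.

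Focused strong regions stood further from other Pol II regions than focused weaker ones. The median gap to the nearest whole-series region was 12988 bp (quartiles 5130 and 25743 bp) for members and 6517 bp (1623 and 16010 bp) for focused weaker regions. Another whole-series region lay within 1000 bp of 39 of the 460 members (8.48%, 6.10% to 11.4%) and of 253 of the 1317 focused weaker regions (19.2%, 17.1% to 21.4%). The share over all 4247 regions on the arms was 26.0%. Wider regions that were as strong, 604 in all, had a neighbour within 1000 bp in 24.5% of cases (21.1% to 28.1%) and a median gap of 7331 bp. For the 1866 wider regions below the percentile the values were 35.6% (33.4% to 37.8%) and 2555.5 bp. Strong regions thus stood further from others than weaker ones among wider regions too. The 315 members that were strong in both extractions had a median gap of 12297 bp and a close neighbour in 9.84% of cases. No other region lay within 10000 bp of 264 members (57.4%, 52.7% to 62.0%) and of 509 focused weaker regions (38.6%, 36.0% to 41.3%). When the replicate 1 score alone chose the members, the difference was smaller, with median gaps of 9863.5 and 7480 bp and close neighbours in 11.8% and 17.8% of cases.

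The same order held in each replicate's own list, where the replicate region that forms a member was left out and the next one was sought. In replicate 2 another region lay within 1000 bp of 14.1% of members (11.1% to 17.7%) and of 31.4% of focused weaker regions (28.9% to 34.0%), beside 41.7% of all regions on the arms. In replicate 1 the share was 9.13% of members (6.66% to 12.1%) and 21.6% of focused weaker regions (19.4% to 24.0%), beside 28.7% of all regions. The smallest gap met in either list was 200 bp, so a second signal closer than that would not be listed as a neighbour. Over both replicates the mean was 11.6% ± 3.54 for members and 26.5% ± 6.93 for focused weaker regions (SD, n = 2 each). The median gap for members was 7207 bp in replicate 2 and 11216 bp in replicate 1. For focused weaker regions it was 2819 bp in replicate 2 and 5288 bp in replicate 1. Within each replicate the member value stood apart from the focused weaker one, and their counting intervals did not overlap.

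**Figure D4:**
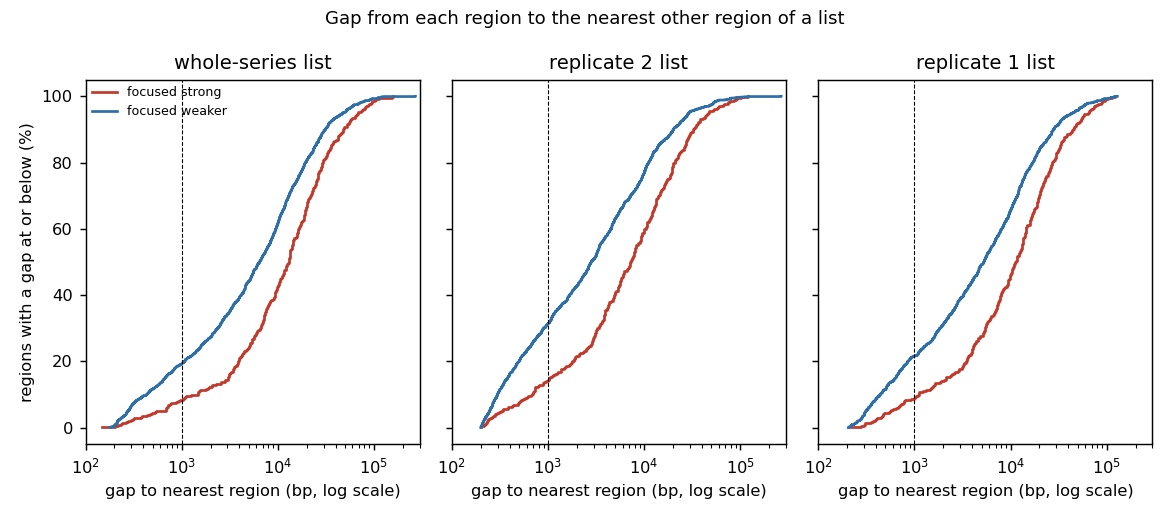
The curves give the percent of regions whose gap to the nearest other region is at or below the value on the horizontal axis (bp, log scale), in the whole-series list and in each replicate list, and the dashed line marks 1000 bp. The curve of the 460 focused strong regions runs to the right of that of the 1317 focused weaker regions in each panel, with medians of 12988 and 6517 bp in the whole-series list.

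Regions found in a single extraction do not enter the whole-series list, so they had no part in the choice of members. Of these, 4232 were found in replicate 2 alone and 1094 in replicate 1 alone. A region found in replicate 2 alone lay within 1000 bp of 31 members (6.74%, 4.62% to 9.43%), of 233 focused weaker regions (17.7%, 15.7% to 19.9%) and of 22.4% of all regions on the arms. A region found in replicate 1 alone lay within 1000 bp of 9 members (1.96%, 0.90% to 3.68%), of 72 focused weaker regions (5.47%, 4.30% to 6.84%) and of 8.19% of all regions. The value in replicate 1 depended on the choice of score. It was 3.92% against 4.75% when the replicate 1 score alone chose the members, and 3.47% against 4.68% at the 90th percentile, with intervals of 2.26% to 6.29% and 1.28% to 7.40% for members that hold the other value.

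The gap widened step by step with score among regions of at most 250 bp. In 4 equal groups by score within each arm, from lowest to highest, the median gap was 4178.5, 6569, 9978 and 12965 bp. The share with another whole-series region within 1000 bp was 28.1%, 17.8%, 12.0% and 8.05%. For regions found in replicate 2 alone within 1000 bp it was 24.0%, 16.0%, 13.3% and 6.26%. The values changed by steps over all 4 groups, and the members are close to the last of them.

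By arm, the median gap was larger for members on all 6 arms, and the share with a close neighbour was lower on 4 of them. The 95% intervals of the median gaps overlapped on 3R, X and chromosome 4. On 3R they were 11725 to 19715 bp for members and 7982 to 12560 bp for focused weaker regions. On X they were 7626 to 15643 bp and 4622 to 8332 bp, and on chromosome 4, with 5 members, 236 to 28185 bp and 1093 to 33315 bp. Within 1000 bp of another whole-series region lay 8.14% of members and 25.1% of focused weaker regions on 2L, 5.94% and 18.2% on 2R, 6.32% and 23.1% on 3L, and 9.09% and 19.4% on X. On 3R the order was turned, with 12.9% of members (6.64% to 22.0%) and 9.89% of focused weaker regions (6.56% to 14.1%), and the intervals overlap. Chromosome 4 had 1 of 5 members and 3 of 16 focused weaker regions with a close neighbour, too few to compare. The median gap on 3R was 15860 bp for members and 9949 bp for focused weaker regions. In the replicate lists of 3R the shares were 15.3% of members and 22.8% of focused weaker regions in replicate 2, and 11.8% and 12.9% in replicate 1. Regions found in replicate 2 alone lay within 1000 bp of 4.71% of members and 17.5% of focused weaker regions on 3R, the order of the other large arms.

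**Figure D5:**
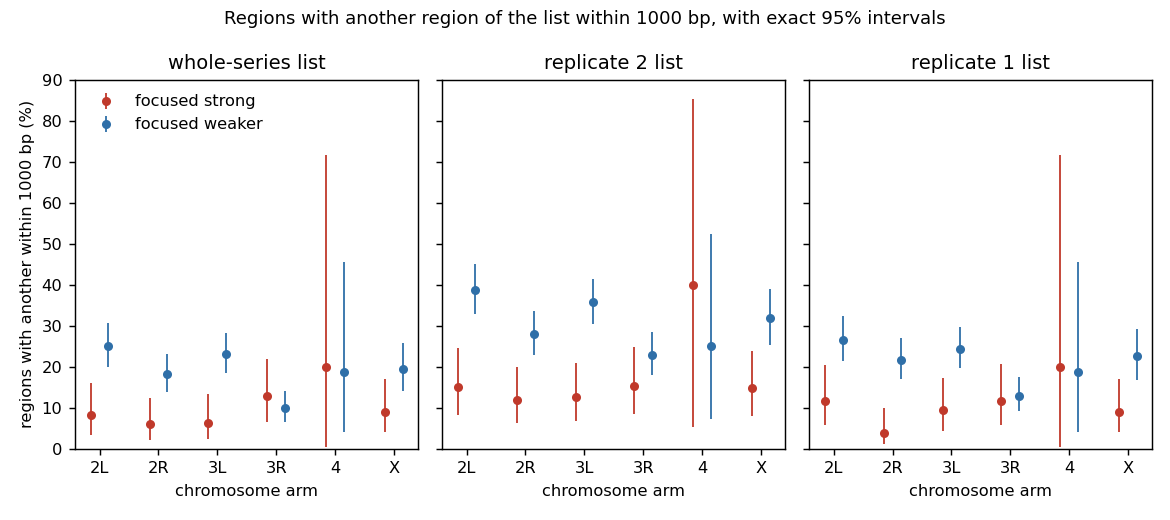
Points give the percent of regions with another region of the same list within 1000 bp, by chromosome arm, for focused strong (left of each pair) and focused weaker regions, with exact 95% intervals. In the whole-series list focused strong regions are lower on 2L, 2R, 3L and X, while on 3R they are at 12.9% against 9.89% with overlapping intervals.

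Among regions over 150 bp the order held within bins of width. Over 200 and up to 250 bp, 25 of 314 members (7.96%) and 89 of 451 focused weaker regions (19.7%) had another whole-series region within 1000 bp, with median gaps of 11609.5 and 6570 bp. Over 150 and up to 200 bp the counts were 5 of 125 members (4.0%) and 85 of 570 focused weaker regions (14.9%), with median gaps of 19222 and 7706 bp. Just outside the width limit, up to 300 bp, regions at or above the score percentile had a close neighbour in 19 of 178 cases (10.7%) and those below it in 68 of 231 (29.4%). Their median gaps were 11873.5 and 3906 bp, the first of them close to the 11609.5 bp of members over 200 bp. The shortest regions differed from the rest. At 150 bp or less, 9 of 21 members (42.9%, 21.8% to 66.0%) had a neighbour within 1000 bp, against 79 of 296 focused weaker regions (26.7%, 21.7% to 32.1%), and the intervals overlap.

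Members also had fewer other regions around them in windows wider than 1000 bp. Within 10000 bp of its midpoint a member had 0.63 ± 1.01 other whole-series regions and a focused weaker region 1.31 ± 1.78 (SD over 460 and 1317 regions). Within 100000 bp it was 7.90 ± 4.66 for members and 9.07 ± 5.07 for focused weaker regions. At distances of 1000 to 5000 bp, a base was inside a whole-series region in 1.5% of cases around members and in 3.84% around focused weaker regions, as the mean over positions taken every 100 bp. In replicate 2 these values were 2.10% and 4.84%, and in replicate 1 they were 0.98% and 2.80%.

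Few members lay close to another member, in a set that is 10.8% of the regions on the arms. None of the 460 had another member within 1000 bp, and 19 had one within 10000 bp. The 0 allows a share of up to 0.65% (a floor of 3 counts in 460, not an exact interval). Of the 1317 focused weaker regions, 66 had another focused weaker region within 1000 bp and 378 within 10000 bp. That set is larger, so the counts are not on an equal footing. The nearest pair was on 3L, at 2894975 to 2895183 and 2896678 to 2896882, with 1494 bp between them. The second of the pair had replicate 2 and replicate 1 scores of 7.60 and 3.37, so both were higher in replicate 2. The 39 members with a neighbour within 1000 bp had a wider weaker region next to them in 19 cases (48.7%, 32.4% to 65.2%). A focused weaker one was next to 17 (43.6%, 27.8% to 60.4%) and a wider strong one to 3 (7.69%, 1.62% to 20.9%). These classes make up 43.9%, 31.0% and 14.2% of all regions on the arms, and the intervals given hold all of these values. Another member was next to 0 of the 39 (0% to 9.03%), an interval that does not hold the 10.8% that members make up on the arms. At any distance the nearest region was another member for 71 of the 460 members (15.4%, 12.3% to 19.1%), against 123 of the 1317 focused weaker regions (9.34%, 7.82% to 11.0%). Members are 10.8% of the regions on the arms. In a mutual pair both members are counted, so these 71 are not independent.

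The most isolated members, outside 2R, were 98226 bp or more from any other whole-series region. On 3R, the region at 23263065 to 23263305 had its nearest neighbour 121359 bp away, with 5.24 in replicate 2 and 2.95 in replicate 1. On X, the region at 4321084 to 4321331 had a gap of 113554 bp, with 5.1 in replicate 2 and 3.73 in replicate 1. On 2L, the region at 714836 to 715049 had a gap of 106334 bp, with 8.08 in replicate 2 and 6.62 in replicate 1. All 3 were higher in replicate 2. The next on 3R, at 8981267 to 8981476, had a gap of 102900 bp, with 4.96 in replicate 2 and 2.89 in replicate 1. On 3L, the region at 15329712 to 15329950 had a gap of 98226 bp and scored 5.82 and 7.07. It was isolated in the whole-series list only, since a region found in replicate 1 alone lay 661 bp away and one found in replicate 2 alone 1739 bp away.

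The least isolated members each lay beside a wider region of lower score. On X, the 93 bp region at 18689756 to 18689848 was 148 bp from a 454 bp region, with scores of 4.60 and 3.33, and its own replicate 1 region was 3 bp wide. On 3R, the region at 12049936 to 12050166 (score 5.66) was 202 bp from a region of 411 bp (3.52), and the one at 4878155 to 4878359 (4.62) was 209 bp from a region of 594 bp (3.28). One more on 3R, at 12033704 to 12033938 (5.53), was 220 bp from a region of 746 bp that scored 1.68. On chromosome 4, the region at 328676 to 328813 (3.81) was 236 bp from a region of 637 bp (2.39). All 5 neighbours were wider weaker regions, so the limits that chose the members set which of each pair was narrower and relatively stronger.

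Chromosome 4 had 5 members in all. That from 716594 to 716758 had replicate 2 and replicate 1 scores of 9.65 and 6.19, and that from 744944 to 745134 had 6.30 and 3.24, with 28185 bp between them. The member from 1074254 to 1074399 had 5.30 in replicate 2 but 2.64 in replicate 1, and the one from 328676 to 328813 had 5.73 and 1.88. The fifth, at 480139 to 480280, was the sole member there with the higher score in replicate 1, at 2.72 in replicate 2 and 4.97 in replicate 1. These regions were given in full because they are few, and not by the rule for naming.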

How the data were processed

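Region lists of each Pol II ChIP sample and 1 list covering both were used, with replicates numbered in sample order. Input samples were not analysed here. PeakSeq wrote the lists as GFF3 on FlyBase r5.1, per the file headers. Which aligner, control and threshold were used is not given in the sources used here. The score of each region was deposited by the authors without a name or unit. At all 460 members it was the mean of the replicate scores (within 0.0001), with outer ends of the replicate regions as its ends. Scores may not share a scale between arms, so percentiles were taken within an arm.

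Overlap was at least 1 bp. A gap is the number of bases between region ends. Shares have exact 95% intervals, medians have 95% intervals from ranked values (binomial), and no p-value was computed. Routines were tested on simulated regions. Tables were handled in pandas 2.3.3 and NumPy 2.4.6 under Python 3.11.15, intervals came from SciPy 1.17.1 and plots from Matplotlib 3.10.9.

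The members, comparisons and lists were chosen with earlier results of these data known. Regions were named outside 2R by rule: the 10 highest scores, the 5 smallest and 5 largest replicate ratios among the upper 25% of members by score, the 5 largest and 5 smallest gaps, and those next to the percentile on each arm. The alternatives were a limit of 200 bp, the 90th percentile, a percentile over all arms, either replicate score alone, midpoints, 2000 bp, and overlap of 50% of both regions. Groups by score, width bins, counts of regions at larger distances, members with very short replicate 1 regions, and the alternatives by width, without 3R and with both replicates high were chosen after the data were seen.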

Additional observations from a re-analysis of the deposited data

How the results depend on the processing

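Members stayed further from other regions than focused weaker regions under every alternative run for the 4 spacing results, 9 for each. Within the main setting, the share with a whole-series region within 1000 bp was turned on 3R. It was also turned at widths of 150 bp or less (42.9% of members, 26.7% of focused weaker regions, overlapping intervals). Chromosome 4 had too few regions to compare. Of 74 alternatives over all results, 45 left the value within its interval (a count within 1.5 times) and 29 moved it. None changed its sign, which only the log2 ratio could do. The order of strong and weaker regions in the share that was short turned under some alternatives. It was 13.7% against 27.2% at 200 bp, 40.4% against 42.0% at the 90th percentile, and 38.3% against 43.0% with the replicate 1 score alone. The order of the log2 ratio turned with the replicate 1 score alone, as given below. A limit of 200 bp gave 146 members with a median gap of 16569 bp, replicate widths of 185.5 bp (replicate 2) and 135.5 bp (replicate 1), 54.8% high in both replicates, a log2 ratio of 0.72 and 13.7% of strong regions short; the lower limit itself sets these widths and counts. The 90th percentile gave 173 members, widths of 218 and 178 bp, 84.4% high in both and a ratio of 0.49. Within 2000 bp, 12.2% of members had a whole-series region, 12.8% one found in replicate 2 alone and 3.91% one found in replicate 1 alone. With 50% of both regions shared, which leaves more regions single, the shares for single-replicate regions were 10.0% and 5.22%, against 23.3% and 11.9% of focused weaker regions. Choosing by either replicate score alone, members numbered 408 to 515, with gaps of 9863.5 to 13341 bp (focused weaker regions 7480 and 6083.5 bp, so the difference was smallest with replicate 1), 8.16% to 11.8% with a whole-series neighbour, 6.99% to 10.0% with one of replicate 2 alone, 2.14% to 3.92% with one of replicate 1 alone, widths of 209 to 210 bp and 163 to 172 bp, 51.5% to 76.2% high in both, log2 ratios of 0.0404 to 0.87 and 38.3% to 48.4% of strong regions short. Chosen by replicate 1 alone, members no longer had a higher ratio than focused weaker regions (0.37). Why the remaining values moved was not tested. No paired analysis was possible because the input samples have no list here and no result comes from a test between groups. Depth is unknown, and a position outside the lists is not shown to lack Pol II.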
